A study of Rattus norvegicus with 2 samples.

Results

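Rbfox1, Rpl3l and Tardbp are 3 genes whose proteins act on RNA or in the ribosome, and they are among 50 genes that the study listed as decreased in the failing left ventricle and increased again with chaetocin. They were chosen by measured values, a ratio of HS (−) to NS (−) under 0.5, a ratio of HS (ch+) to HS (−) over 1.4 and a minimum HS (−) signal of 100, so these ratios are given as a description and no test was applied to them. The 3 genes are 3 of the 20174 genes on the array, and 3 of the 4127 genes that had a ratio on each array and reached this signal in both HS (−) readings. Each gene had 1 spot per array, found by its Ensembl identifier: ENSRNOG00000002827 for Rbfox1 (listed by the study as ataxin 2 binding protein 1), ENSRNOG00000014641 for Rpl3l and ENSRNOG00000012455 for Tardbp.

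Male Dahl salt-sensitive (DS) rats, an inbred strain that becomes hypertensive on salt, were fed 0.3% NaCl [control group, NS (−)], 8% NaCl [heart failure group, HS (−)] or 8% NaCl with chaetocin at 0.25 mg/kg, injected intraperitoneally on 2 days of each week between the ages of 6 and 13 weeks [HS (ch+)]. Chaetocin is a fungal inhibitor of histone methyltransferases of the SUV39H family, although the study cites a report that its specificity may not be high. LV tissue was taken at the stage of heart failure, and RNA of 3 rats was pooled for each group, so that every group was 1 sample. On array 1, HS (−) RNA was labelled with Cy5 and NS (−) RNA with Cy3, and on array 2, HS (−) RNA was labelled with Cy5 and HS (ch+) RNA with Cy3. The labels give the Cy5 sample of both arrays alike, and it was taken to be the same HS (−) pool, which they do not state. HS (−) was therefore read 2 times in the same dye, NS (−) and HS (ch+) 1 time each in the other dye, and no array had the dyes exchanged. Diet or chaetocin and dye cannot be told apart within an array. In bulk LV tissue, fewer cells of a type and less RNA per cell cannot be told apart.

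RBFOX1 binds RNA at a short sequence element and directs alternative splicing in heart, skeletal muscle and neurons. RPL3L is the striated muscle paralog of RPL3, a core protein of the large ribosomal subunit, and replaces it in part of the ribosomes of heart and skeletal muscle. TDP-43, the product of Tardbp, is a ubiquitous nuclear RNA-binding protein that represses cryptic exons, takes part in splicing and controls the amount of its own mRNA.

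The promoters of the 3 genes are shown because the genes were listed together for a decrease in HS (−) and an increase with chaetocin. They are the 250 bases before the annotated start of each gene in RefSeq, on the GRCr8 assembly and on the strand of the gene. All 3 genes matched RefSeq by symbol. Capitals mark matches to 8 motifs searched on both strands: the TATA box (TATAAA), the CCAAT box (CCAAT), the GC box (GGGCGG), the E-box (CANNTG), the core of the cAMP response element (TGACG), the GATA core (AGATAA), the MEF2 site and the CArG box. The window of Rbfox1 was chr10:8999392-8999641 (minus strand), that of Rpl3l chr10:14258196-14258445 (plus strand) and that of Tardbp chr5:164345205-164345454 (minus strand).
Rbfox1: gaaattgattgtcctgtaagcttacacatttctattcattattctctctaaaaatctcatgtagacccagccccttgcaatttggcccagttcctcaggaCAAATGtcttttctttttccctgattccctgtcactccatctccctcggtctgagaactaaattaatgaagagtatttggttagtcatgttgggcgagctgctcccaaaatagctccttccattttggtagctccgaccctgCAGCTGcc
Rpl3l: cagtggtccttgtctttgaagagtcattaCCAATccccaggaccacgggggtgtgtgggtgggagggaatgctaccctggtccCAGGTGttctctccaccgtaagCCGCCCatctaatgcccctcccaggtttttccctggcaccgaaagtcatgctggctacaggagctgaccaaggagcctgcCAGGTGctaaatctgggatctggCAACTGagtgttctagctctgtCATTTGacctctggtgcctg
Tardbp: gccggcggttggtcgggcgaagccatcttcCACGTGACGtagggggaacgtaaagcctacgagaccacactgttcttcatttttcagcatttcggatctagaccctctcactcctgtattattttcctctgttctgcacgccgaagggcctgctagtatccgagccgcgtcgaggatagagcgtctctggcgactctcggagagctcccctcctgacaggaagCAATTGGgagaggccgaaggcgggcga

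An E-box, the element read by basic helix-loop-helix factors, was the motif found in all 3 windows, and 65.5% of the 33469 RefSeq promoter windows of the same length held at least 1. Rbfox1 had 2 E-boxes, at positions -150 and -8 from the start, and no other match. Rpl3l had 4 E-boxes, at -167, -65, -42 and -20, a number reached or exceeded by 3.2% of all windows. Rpl3l also had a CCAAT box at -221 and a GC box on the opposite strand at -145, motifs held by 34.0% and 30.5% of all windows. Tardbp had an E-box at -220 that overlapped a TGACG core at -216, and an E-box at -27 that overlapped a CCAAT box on the opposite strand at -25. The TGACG core was found in 18.2% of all windows. None of the 3 windows held TATAAA (12.9% of all windows), AGATAA (10.3%), the MEF2 site (0.523%) or the CArG box (1.5%). The Tardbp window differed from the others in its CpG content, with 21 CpG dinucleotides against 3 for Rbfox1 and 4 for Rpl3l, and 15.1% of all windows had at least 21. The G and C content was 44.0% for Rbfox1, 56.4% for Rpl3l and 57.6% for Tardbp, with a median of 51.2% over all windows. These matches describe the letters in the windows and were not set against binding data.

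The values below are blank-subtracted intensities in arbitrary units, that is, the brightness of a spot minus the trimmed mean of the empty spots of its array and channel. Ratios were centered so that the median log2 ratio of each array over genes and control spots was 0. As every comparison rested on 1 array, the spread between replicates is unknown. The only repeated measurement was HS (−), and the SD of the log2 difference between its readings on the 2 arrays over the 4127 genes, 0.16 (1.12-fold), served as the measure of technical error. If the Cy5 RNA of both arrays was the same pool, it covers labelling, hybridization and scanning in Cy5, and not Cy3 or the differences between rats.

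Rbfox1, the splicing regulator, had signals of 1391 in NS (−) and 435 in HS (−) on array 1. On array 2 its signals were 471 in HS (−) and 1033 in HS (ch+). Both HS (−) readings were thus close to each other and lay below NS (−) and HS (ch+). After centering, Rbfox1 in HS (−) was 0.351 times NS (−) (log2 −1.51), and in HS (ch+) 1.69 times HS (−) (log2 0.76). The product of both ratios, HS (ch+)/NS (−), was 0.593, so that 50.1% of the decrease on the log2 scale was regained. This share was 20.8% with the background value beside each spot subtracted and 6.31% by normexp with loess, where HS (ch+)/HS (−) was under the limit of 1.4.

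Rpl3l, the muscle ribosomal protein, had signals of 2838 in NS (−) and 1048 in HS (−) on array 1. On array 2 its signals were 1090 in HS (−) and 2344 in HS (ch+). The order of the groups was the one seen for Rbfox1, and the HS (−) readings were again close. The centered ratio was 0.415 for HS (−)/NS (−) (log2 −1.27) and 1.66 for HS (ch+)/HS (−) (log2 0.73). HS (ch+)/NS (−) was 0.688, and 57.4% of the decrease was regained.

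Tardbp had signals of 265 in NS (−) and 116 in HS (−) on array 1. On array 2 its signals were 179 in HS (−) and 434 in HS (ch+). Here HS (−) read 1.55-fold higher on array 2 than on array 1, whereas it was 1.08-fold higher for Rbfox1 and 1.04-fold higher for Rpl3l. The centered ratio was 0.492 for HS (−)/NS (−) (log2 −1.02) and 1.86 for HS (ch+)/HS (−) (log2 0.90). HS (ch+)/NS (−) was 0.917 (log2 −0.12), and 87.8% of the decrease was regained, compared with a median of 57.3% over the 50 genes. HS (ch+)/NS (−) of Tardbp turned to values over 1, up to 1.45, under 6 alternatives. The share regained was not calculated for all of these. Where it was, it was over all of the decrease, as by normexp with loess (122%).

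**Figure D1:**
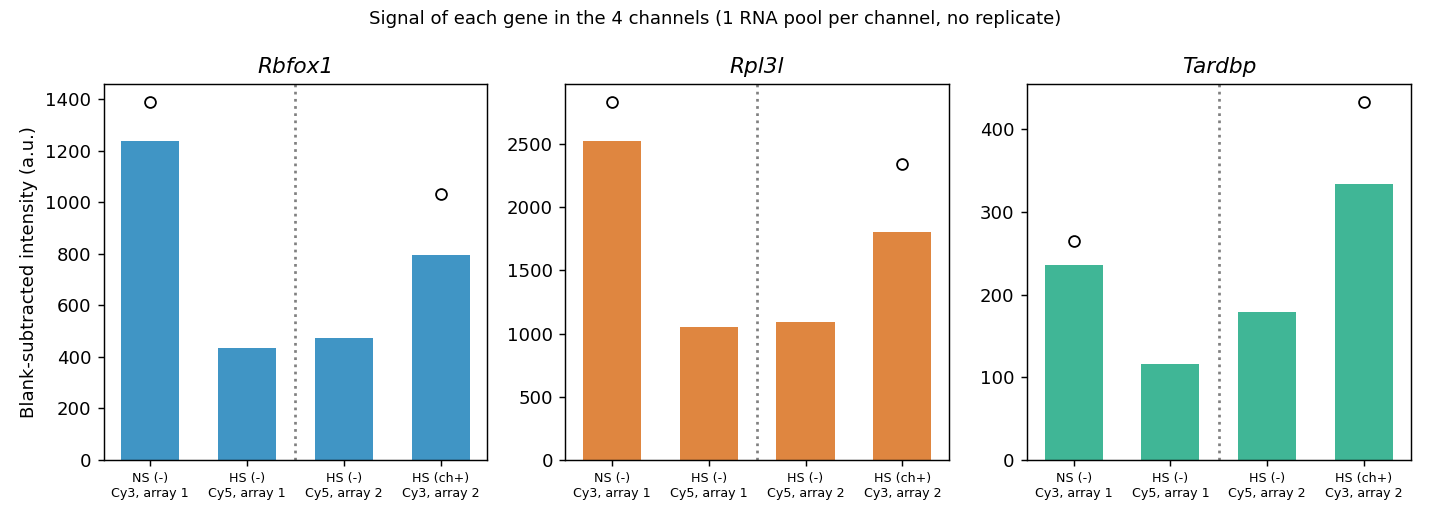
Blank-subtracted intensity (vertical axis, arbitrary units, from 0, a separate scale for each gene) of Rbfox1, Rpl3l and Tardbp in NS (−), both HS (−) readings and HS (ch+). Bars are values after centering of Cy3 on Cy5 within each array and open circles the Cy3 values before it, each from 1 pool without error bars. Both HS (−) bars are nearly level for Rbfox1 (435 and 471) and Rpl3l (1048 and 1090) and unequal for Tardbp (116 and 179).

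By the centered ratios, the order of the groups from high to low was NS (−), HS (ch+), HS (−) for all 3 genes. The log2 HS (ch+)/NS (−) was −0.75 for Rbfox1, −0.54 for Rpl3l and −0.12 for Tardbp. With 1 pool per group and no repeated Cy3 reading, whether neighbours in this order differ beyond the spread between rats was not tested, and for Tardbp the order of NS (−) and HS (ch+) turned with the processing. The log2 HS (−)/NS (−) of Rbfox1 minus that of Tardbp was −0.49, that of Rbfox1 minus Rpl3l was −0.24 and that of Rpl3l minus Tardbp was −0.25. For the log2 HS (ch+)/HS (−) the same differences were −0.14, 0.03 and −0.17. Which of the ratios varied more among the 3 genes depended on the processing, since HS (ch+)/HS (−) ran from 1.27 for Rbfox1 to 2.34 for Tardbp with the spot background subtracted and from 1.06 to 1.74 by normexp with loess.

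Over the 4127 genes the median ratio was 0.978 for HS (−)/NS (−) and 1.02 for HS (ch+)/HS (−). A ratio of HS (−)/NS (−) under 0.5 was found for 57 genes (1.38%), a ratio of HS (ch+)/HS (−) over 1.4 for 242 genes (5.86%) and both for 50 genes (1.21%). That all 3 genes are among them follows from how they were chosen. By the decrease in HS (−), Rbfox1 ranked 11th, Rpl3l 20th and Tardbp 54th of the 4127 genes. By the increase in HS (ch+), Tardbp ranked 13th, Rbfox1 39th and Rpl3l 45th. Of the 3, Tardbp thus had the smallest decrease and the largest increase, but with the median of nearby spots subtracted its increase was the smallest (1.62, against 1.88 for Rbfox1 and 1.66 for Rpl3l). Both ratios contain an HS (−) reading, on separate arrays.

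**Figure D2:**
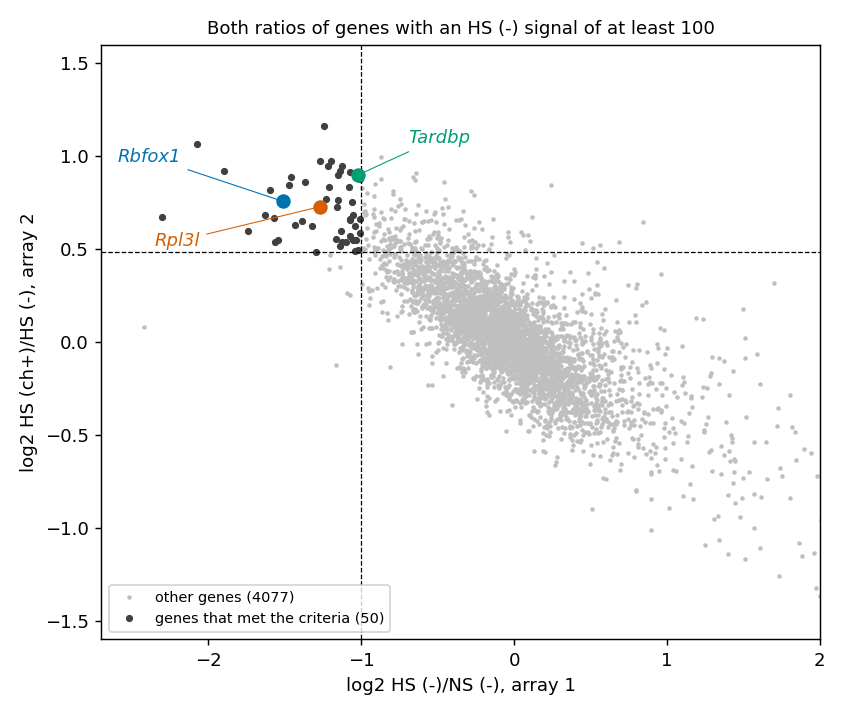
The log2 ratio HS (−)/NS (−) of array 1 (horizontal axis) against the log2 ratio HS (ch+)/HS (−) of array 2 (vertical axis) for the 4127 genes, of which 67 lie outside the plotted range. Dashed lines are the limits of 0.5 and 1.4, dark points the 50 genes that met the criteria. Tardbp sits on the vertical line, and Rbfox1 and Rpl3l lie farther to the left.

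The distance to the limits differed among the genes. Rbfox1 passed the limit for the decrease by 0.51 on the log2 scale and Rpl3l by 0.27, while Tardbp passed it by 0.02. These margins are part of how the genes were chosen and carry no test. The limit for the increase was passed by 0.27 for Rbfox1, 0.24 for Rpl3l and 0.41 for Tardbp. Among genes with the increase, those just inside the limit for the decrease were Ces3 (0.498), Chpt1 (0.497) and Suox (0.497), and those just outside had ratios of 0.501, 0.501 and 0.503. Among genes with the decrease, those just inside the limit for the increase were Hadh, Ppp1r14c and Mrpl19, of which Mrpl19 had 1.41, and those just outside had 1.38, 1.32 and 1.31. For the signal minimum, Suox (115), Tardbp (116) and Rtn2 (121) were just inside, and the genes just outside had signals of 92.7, 92.3 and 82.0. Of the 3 genes, only Tardbp was in these lists, for the signal minimum. For the decrease, where Tardbp passed the limit by 0.02, the 3 listed genes lay nearer to it. The lists held neither Rbfox1 nor Rpl3l, although other processing moved these genes past a limit too.

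The HS (−) readings of each gene were then compared, a measure that the criteria did not use as such. Over the 4127 genes, HS (−) was higher on array 2 by a median of 0.15 on the log2 scale (5th to 95th percentile, −0.04 to 0.46). The difference was 0.12 for Rbfox1 and 0.06 for Rpl3l, or −0.182 and −0.557 times the SD from the median. As many as 84.1% of the genes lay at least as far from the median as Rbfox1, and 52.5% as far as Rpl3l. By blank subtraction, the HS (−) readings of both genes differed by less than the technical SD. The difference was 0.63 for Tardbp, 3.02 times the SD above the median, and 32 of 4127 genes (0.775%) lay as far. Among 731 genes with an HS (−) signal within 0.25 (log2) of that of Tardbp, the SD was 0.16 and 6 genes (0.821%, counting Tardbp) lay as far, so that the distance was not shared by genes of like signal. Among the 50 genes the difference ranged from −0.26 to 0.79, and Tardbp was the 2nd farthest from the median, after a gene at 0.79. The contrast of Rbfox1 with Tardbp depended on which background value was subtracted. With the spot background subtracted, the difference was 0.50 for Rbfox1, 0.08 for Rpl3l and 0.35 for Tardbp, so that it was larger for Rbfox1 than for Tardbp.

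**Figure D3:**
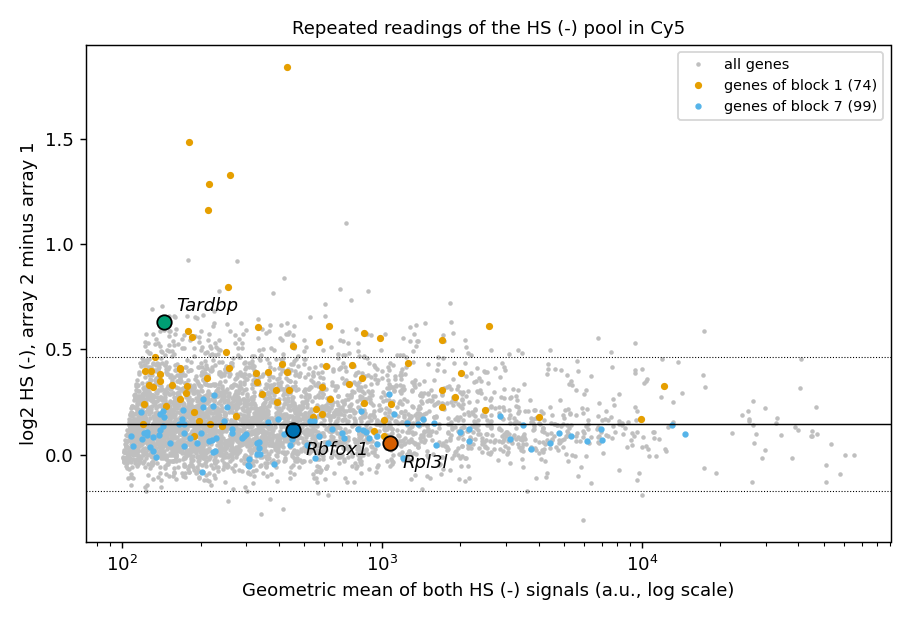
Log2 difference of the HS (−) readings, array 2 minus array 1 (vertical axis), against the geometric mean of both signals (horizontal axis, arbitrary units, log scale) for 4127 genes. The solid line is the median (0.15) and the dotted lines lie 2 SD on either side. Rbfox1 and Rpl3l are between the dotted lines among the genes of block 7, and Tardbp is above them, as are several other genes of block 1.

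The array is printed in 48 blocks, and the spot of Tardbp lay apart from those of the other genes. Rbfox1 (column 19, row 8) and Rpl3l (column 21, row 6) were in block 7, 2 rows and 2 columns apart, and Tardbp (column 5, row 18) was in block 1. In block 7 the HS (−) difference had a median of 0.09 and an SD of 0.07 over 99 genes, the 7th smallest SD of the 48 blocks. In block 1 it had a median of 0.34, the 3rd highest, and an SD of 0.31 over 74 genes, the highest of all blocks (lowest 0.05, median 0.12). The readings of Rbfox1 and Rpl3l were therefore made where the arrays repeated each other closely, and those of Tardbp where they did so least. Within block 1, Tardbp was 0.29 above the median of the block, or 0.914 times the SD of that block, and the 7th highest of 74 genes. The 12 measured genes within 3 rows and columns of Tardbp had differences of 0.17 to 0.61 (median 0.40), all below its 0.63 and all above the median over the array. The 8 such genes around Rbfox1 had −0.02 to 0.19 (median 0.06) and the 8 around Rpl3l −0.05 to 0.23 (median 0.05), ranges that contained the values of these genes.

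**Figure D4:**
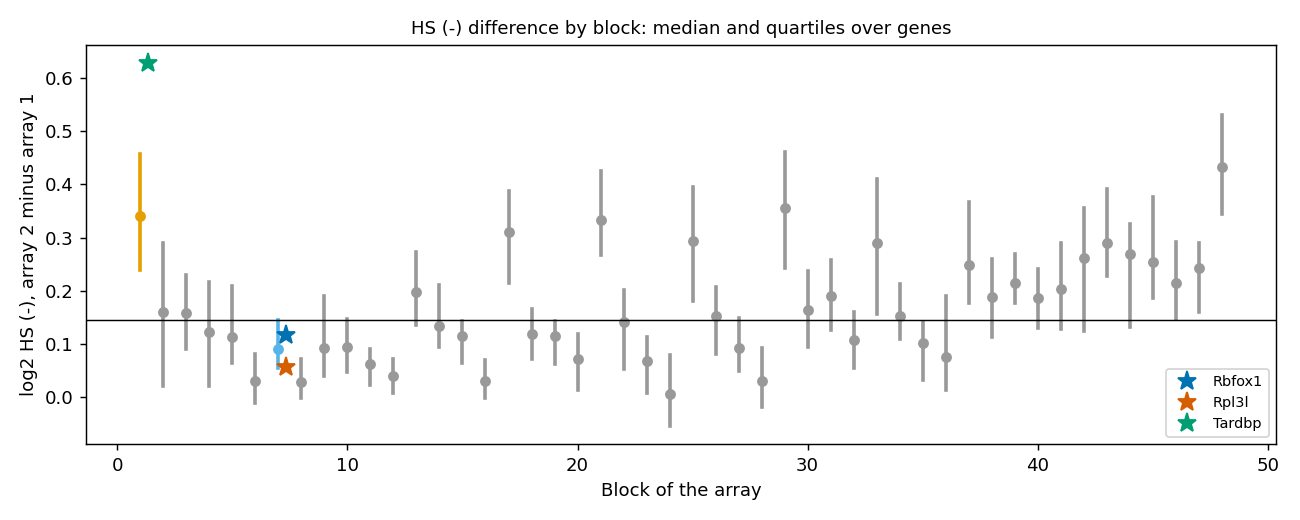
Log2 difference of the HS (−) readings, array 2 minus array 1 (vertical axis), in each of the 48 blocks (horizontal axis): circles are medians and bars the lower to upper quartiles over the genes of a block, and stars the 3 named genes. The horizontal line is the median over all genes (0.15). Block 1 (orange, median 0.34) holds Tardbp, which lies above its quartiles, and block 7 (light blue, median 0.09) holds Rbfox1 and Rpl3l.

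Block 1 also held 7 of the 50 genes, or 9.46% of its 74 genes, against 1.21% over the array, and block 7 held 3, or 3.03% of its 99 genes. The median log2 HS (−)/NS (−) of the genes around Tardbp was −0.25 and their median log2 HS (ch+)/HS (−) was 0.33, the directions of Tardbp itself. The same medians were 0.22 and −0.14 around Rbfox1 and 0.19 and 0.00 around Rpl3l, which was opposite to the genes themselves except for the increase of Rpl3l, where the nearby median was close to 0. When dimmer spots with a ratio were included, the median of the centered log2 Cy3/Cy5 near Tardbp was 0.10 over 25 spots on array 1. On array 2 it was 0.20 over 27 spots. Near Rbfox1 it was 0.02 over 27 and −0.15 over 28 spots. With the nearby medians subtracted from the centered log2 ratios, HS (ch+)/HS (−) was 1.62 for Tardbp and HS (−)/NS (−) was 0.528, over the limit of 0.5. By the same step HS (−)/NS (−) was 0.357 for Rbfox1 and 0.422 for Rpl3l, and HS (ch+)/HS (−) 1.88 and 1.66. The part of location in the ratios of Tardbp was not tested.

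Exchanging the HS (−) readings between the arrays, after scaling by the median difference, showed how much each ratio rested on its own reading. HS (−)/NS (−) became 0.344 for Rbfox1 and 0.390 for Rpl3l, and HS (ch+)/HS (−) became 1.65 and 1.56. These genes met the criteria with either reading. For Tardbp HS (−)/NS (−) became 0.688, over the limit, and HS (ch+)/HS (−) became 2.60. The Cy3 signal of Tardbp was also higher on array 2, by 1.64-fold before centering, whereas it was 0.743 times that of array 1 for Rbfox1 and 0.826 times for Rpl3l. Set against each other directly, with each array scaled to the same HS (−) median, HS (ch+)/NS (−) was 1.45 for Tardbp, 0.658 for Rbfox1 and 0.731 for Rpl3l. Tardbp thus lay below NS (−) by the product of ratios and above it by the direct comparison, and the others lay below it by both. The direct comparison leaves out the centering of Cy3 on Cy5, which subtracted 0.17 on array 1 and 0.38 on array 2 (log2). The shift that this leaves in all genes was not calculated, so 1.45 and 0.917 are not on the same scale.

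The background value that the scanner recorded beside each spot was also examined. Among the 3 genes this value rose with the brightness of the spot. In Cy5 on array 1 it was 37 for Tardbp, 275 for Rbfox1 and 613 for Rpl3l, whereas blank spots averaged 24.8. Whether it measures a background local to the spot was not tested, which limits every setting that uses it. For Rbfox1 it was 59.7% of the spot in HS (−) and 55.5% in NS (−) on array 1, and 47.2% in HS (−) and 63.1% in HS (ch+) on array 2. For Rpl3l the shares were even, from 54.3% to 57.1% over the 4 channels. For Tardbp they were lower, from 23.3% to 35.5%, with the highest in HS (−) of array 2. Spots of like brightness had medians of 36.1% to 49.2%. The uneven share for Rbfox1 went with the largest effect of spot background among the 3 genes. With the spot background subtracted, HS (ch+)/HS (−) of Rbfox1 was 1.27, under the limit of 1.4, and its HS (−) readings differed by 0.50 (log2). By normexp with loess, which also uses the spot background, this ratio was 1.06 for Rbfox1. The same ratio was 1.87 and 1.51 for Rpl3l and 2.34 and 1.74 for Tardbp.

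How often each gene met both ratio limits and the signal minimum therefore depended on the processing. All 3 met them with the authors' deposited values (50 genes in all), without centering (127) and without a signal minimum (223). These settings could not remove a gene. The deposited values equal the reported ones, and leaving out the minimum only drops a criterion. Without centering, every log2 HS (−)/NS (−) moved by −0.17 and every log2 HS (ch+)/HS (−) by 0.38, both farther past the limits. Rbfox1 and Rpl3l met them with loess (35 genes in all), with 50 added to each signal (57) and with a signal minimum of 200 (32). Rpl3l alone met them with the spot background subtracted (190 genes in all) and by normexp with loess (58). Rbfox1 alone met them with loess within blocks (27 genes in all). None of the 3 met them without background subtraction, where only 5 genes in all did. HS (−)/NS (−) was under 1 and HS (ch+)/HS (−) over 1 for each gene in every setting that was run. As the genes were chosen for these directions on the same spots, this is a description only. The lowest HS (ch+)/HS (−), 1.06 for Rbfox1 by normexp with loess, was less than the technical SD of 1.12-fold away from 1.

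**Figure D5:**
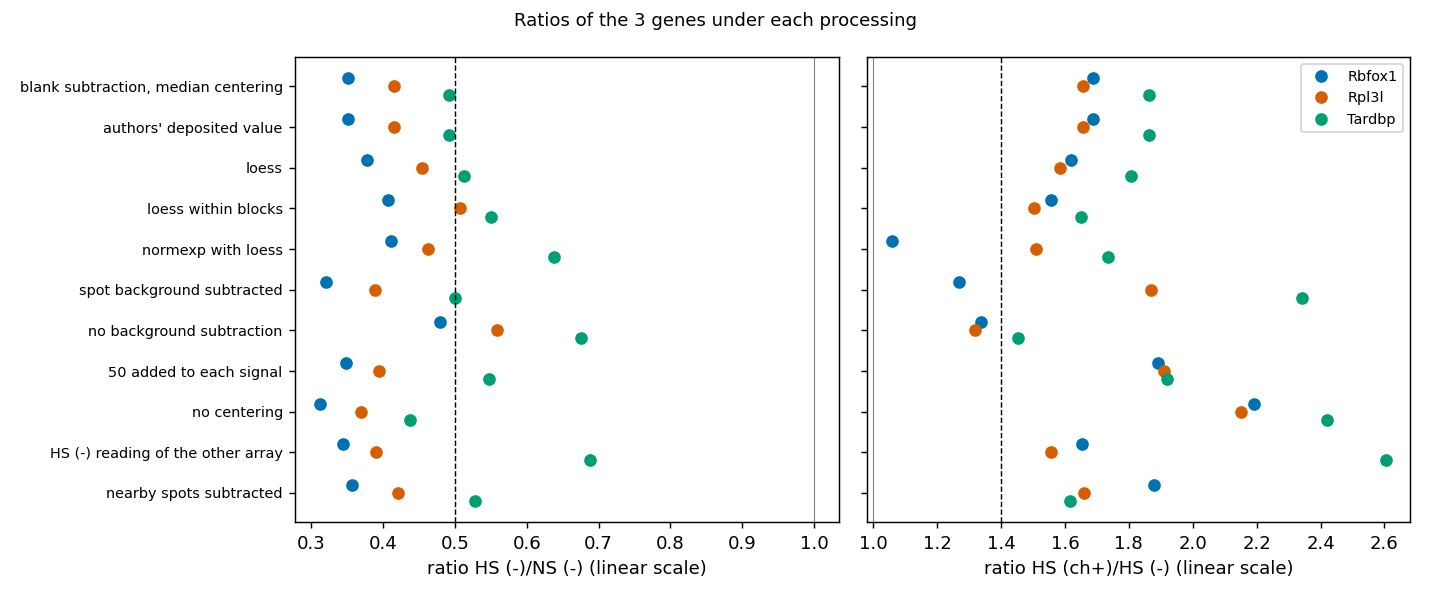
Ratio of HS (−) to NS (−) (left) and of HS (ch+) to HS (−) (right), on linear horizontal axes, for each gene under the processing named on the vertical axis. Dashed lines are the limits of 0.5 and 1.4 and the thin grey lines mark a ratio of 1. All points for HS (−)/NS (−) lie under 1, Tardbp crosses 0.5 in most settings, and Rbfox1 falls under 1.4 in 3 of them.

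The nearest named genes in the plane of both log2 ratios were found among the 50, the only array identifiers that could be paired with a name. For Rbfox1 they were Macrod1 (distance 0.09), Wfdc1 (0.11), Eno3 (0.11), Cd74 (0.14) and Fkbp4 (0.14). For Rpl3l they were Ecsit (0.06), Lnx1 (0.11), Dusp1 (0.12), Car4 (0.12) and Mlf1 (0.12). For Tardbp they were Ces3 (0.03), LOC690825 (0.05), LOC363987 (0.09), Bola3 (0.12) and Tmem50b (0.12), with some unnamed genes nearer than the last of these. The 3 genes were farther from each other, at 0.24 (Rbfox1 and Rpl3l), 0.30 (Rpl3l and Tardbp) and 0.51 (Rbfox1 and Tardbp).

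Mrpl19, a protein of the large subunit of the mitochondrial ribosome, was the other ribosome gene that could be named among the 50. Its signals were 468 in NS (−) and 205 in HS (−) on array 1, and 190 in HS (−) and 348 in HS (ch+) on array 2. HS (−)/NS (−) was 0.492, HS (ch+)/HS (−) 1.41 and HS (ch+)/NS (−) 0.692, so that it resembled Rpl3l in the last ratio and Tardbp in its small distance to the limit for the decrease. Of 413 genes in lists of splicing regulators, spliceosome, hnRNP and SR proteins, cytosolic and mitochondrial ribosomal proteins, translation factors and cell type markers, 5 could be paired with an identifier: the 3 genes, Mrpl19 and Myh6. Rpl3, other Rbfox genes and the other lists were not analysed here. Myh6, the cardiac alpha myosin heavy chain and a marker of cardiomyocytes, was bright in all 4 channels, from 11788 in HS (−) on array 1 to a saturated spot in NS (−). It is itself among the 50, with HS (−)/NS (−) of 0.202, HS (ch+)/HS (−) of 1.59 and HS (ch+)/NS (−) of 0.322. These directions were those of the 3 genes. As its NS (−) spot was saturated, its ratios to NS (−) may be lower still. Markers of other cell types were not analysed here, and their part in the results was not tested.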

How the data were processed

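LV RNA of DS rats, pooled from 3 rats per group, was hybridized to 2 rat oligonucleotide arrays with 2 dyes on each. The authors deposited the intensity of each spot in both channels with a spot background, merged from scans at 3 gains, and a table of normalized log2 values. Groups and dyes came from the labels. The mean of the blank spots, without the highest and lowest 5%, was subtracted, spots had to exceed it by 2 SD in both channels, and the median log2 ratio over genes and control spots was subtracted. These steps gave the deposited log2 table within 2.7e-05. The software that made it is not given in the sources used here. HS (ch+)/NS (−) was obtained by multiplying the ratios. No test was possible with a single array for each comparison, and the number of arrays limits the precision. Nearby spots were those within 3 rows and columns.

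The genes and lists were chosen with earlier results of these data known. The rule for named genes was the 3 genes, listed relatives that could be named, and the 5 nearest named genes. Alternatives were other background corrections, normalizations, an added 50, signal minimums and exchanged HS (−) readings. Python 3.11.15, R 4.3.3 and limma 3.58.1 were used, and the scripts were tested on simulated data. Names came from the list of the study and RefSeq.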

Additional observations from a re-analysis of the deposited data

How the results depend on the processing

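Of 102 recalculated values, 56 stayed within 1 technical SD of the reported value (for counts, within 1.5 times), 40 moved further and 6 reversed in direction. Reversals were counted for ratios only. The HS (−) difference of Rbfox1 and Rpl3l also changed sign in some settings, as when centered on its median (−0.029 and −0.089). The 9 deposited values were equal to the reported ones by construction. The reversed values all concerned HS (ch+)/NS (−) of Tardbp, 0.917 as reported, which was 1.17 with the spot background subtracted, 1.11 by normexp with loess, 1.06 without centering, 1.05 with 50 added, 1.45 with Cy3 signals set against each other directly and 1.26 by Aquantile after loess. Without centering and with 50 added, the log2 HS (ch+)/NS (−) of all genes moved by 0.21 and 0.11, and relative to that shift Tardbp was 0.917 and 0.977, so neither was a reversal relative to the other genes. Relative to the shift of all genes, Tardbp was 1.07 with the spot background subtracted and 1.07 by normexp with loess. Both were less than the technical SD of 1.12-fold away from 1. This value was not calculated for the direct comparison or for Aquantile. For these 4 reversals the cause was not tested.

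With the spot background subtracted, Rbfox1 had HS (ch+)/HS (−) of 1.27, HS (ch+)/NS (−) of 0.406 and an HS (−) difference of 0.50, Rpl3l had HS (ch+)/HS (−) of 1.87, and Tardbp had 2.34 and an HS (−) difference of 0.35. Without background subtraction, HS (−)/NS (−) and HS (ch+)/HS (−) were 0.480 and 1.34 for Rbfox1, 0.559 and 1.32 for Rpl3l, and 0.676 and 1.45 for Tardbp. By normexp with loess, Rbfox1 had 0.412, 1.06 and, for HS (ch+)/NS (−), 0.435, and Tardbp had HS (−)/NS (−) of 0.638. With loess within blocks, HS (−)/NS (−) was 0.407 for Rbfox1, 0.507 for Rpl3l and 0.551 for Tardbp, with HS (ch+)/HS (−) of 1.65 for Tardbp. Without centering, HS (−)/NS (−) and HS (ch+)/HS (−) were 0.313 and 2.19 for Rbfox1, 0.369 and 2.15 for Rpl3l, and 0.438 and 2.42 for Tardbp, and HS (ch+)/NS (−) was 0.685 for Rbfox1 and 0.794 for Rpl3l. With 50 added, HS (ch+)/HS (−) was 1.89 for Rbfox1 and 1.91 for Rpl3l. With the HS (−) readings exchanged, Tardbp had 0.688 and 2.60. With the trend with signal subtracted, the HS (−) difference was −0.047 for Rbfox1 and −0.11 for Rpl3l. Chosen after seeing the data, subtraction of nearby spots gave Tardbp HS (ch+)/HS (−) of 1.62, and subtraction of the block median an HS (−) difference of 0.29. The 50 genes became 190 with the spot background subtracted, 5 without background subtraction, 32 with a signal minimum of 200 and 223 without a minimum.

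Some settings moved the median log2 ratio of all genes: by 0.32 and −0.27 (arrays 1 and 2) without background subtraction, by −0.17 and 0.38 without centering, and on array 2 by 0.24 with the spot background subtracted and 0.19 with 50 added. The HS (−) signal of Tardbp, 116 on array 1, lies near the minimum of 100. The deposited scans at 3 gains are merged, so another gain was not run. Gene lists gave no counts, because 5 of their 413 genes could be named. No paired analysis was possible because every group had 1 sample.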
